A study of Mus musculus with 6 samples.

Results

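The genes described are 8 genes of the hypertrophic, or late, stage of growth plate chondrocytes, together with the receptor that holds cells back from it: Col10a1, Mmp13, Ihh, Pth1r, Runx2, Runx3, Mef2c and Panx3. They were chosen by name, with earlier results of these data known, and all 8 were found among the 35976 genes of the count table. A low-count filter kept 7 of them among the 13761 genes tested, and Ihh did not pass it. The cells were mouse embryonic chondrocytes from hind limb articular cartilage at embryonic day 18.5, on a C57BL/6 x 129S4/SvJae background. They were expanded on plastic for 16 population doublings, and doxycycline at 2 µg/ml induced an H3.3 transgene in both groups. In H3K9M cells (3 libraries, replicates 1, 3 and 5) the transgene was a lysine-to-methionine mutant, described in the labels as suppressing H3K9 methylation, a mark of silent chromatin. In H3WT cells (3 libraries, replicates 1, 2 and 4) it was wild-type H3.3. Polyadenylated RNA was sequenced, and the comparison asked how transcript levels differed between the groups after expansion. No label says that the libraries came from separate embryos or cultures, so p-values measure only the spread between these libraries, which may be technical. Within a group, libraries differed beyond sampling noise, with a chi-square of 28.6 to 126 for each degree of freedom.

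In the growth plate, round and columnar chondrocytes proliferate, stop dividing and enlarge into hypertrophic cells, which make a collagen X matrix that is later mineralized and replaced by bone. Indian hedgehog, secreted by prehypertrophic cells, raises the production of parathyroid hormone-related protein (PTHrP) at the ends of the bone. PTHrP acts through its receptor Pth1r, coupled to G proteins and cyclic AMP, to delay hypertrophy, and so closes a feedback loop. RUNX2, RUNX3 and MEF2C are transcription factors that drive the hypertrophic programme, and histone deacetylases such as HDAC4 restrain them. Articular chondrocytes normally stay out of this programme.

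Positions are given on the mouse genome GRCm38, the assembly also called mm10, with the GENCODE M21 annotation. Pth1r is at chr9:110722085-110747145 on the minus strand and Mmp13 at chr9:7272514-7283331 on the plus strand. Col10a1 is at chr10:34389981-34397085 (plus), Panx3 at chr9:37659902-37669235 (minus) and Ihh at chr1:74945315-74951672 (minus). The transcription factor genes are Mef2c at chr13:83504034-83667080 (plus), Runx2 at chr17:44495987-44814797 (minus) and Runx3 at chr4:135120652-135177990 (plus). The annotated exons of Pth1r share 95 bases (3.2%) with Myl3 on the opposite strand, and Myl3 had 5 counts in H3WT replicate 1 and 0 in the other 5 libraries. Exons of Col10a1 share 18 bases (0.6%) with Nt5dc1, and exons of Runx2 share 519 bases (5.9%) with the antisense gene Runx2os1. Whether counting used the strand is not given in the sources used here, so the count of Runx2 is the least certain of these. Of the 50-base windows of the longest Runx2 transcript, 8.01% also occur in transcripts of other genes. The share was 1.46% for Runx3 and 0 for the other 6 genes.

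The 250 bases before the annotated start are shown for the 3 genes on which the comparison turns: the receptor, the collagenase that varied most like it, and the collagen that defines the hypertrophic cell. The letters come from RefSeq on GRCm38.p6, where 7 of the 8 genes have an entry, and run 5′ to 3′ on the gene's strand. Capitals mark matches to any of 5 motifs: the RUNX motif TGTGGT, the AP-1 motif TGANTCA and the cyclic AMP response element TGACGTCA on either strand, the MEF2 motif on either strand, and TATAAA on the gene's own strand. The windows are Pth1r, first annotated start, chr9:110747146-110747395, minus strand; Mmp13, chr9:7272264-7272513, plus strand; and Col10a1, chr10:34389731-34389980, plus strand.
Pth1r: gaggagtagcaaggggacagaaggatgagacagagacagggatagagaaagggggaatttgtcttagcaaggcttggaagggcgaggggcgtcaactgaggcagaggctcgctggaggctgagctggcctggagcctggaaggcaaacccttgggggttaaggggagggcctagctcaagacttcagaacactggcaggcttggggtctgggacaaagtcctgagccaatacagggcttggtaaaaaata
Mmp13: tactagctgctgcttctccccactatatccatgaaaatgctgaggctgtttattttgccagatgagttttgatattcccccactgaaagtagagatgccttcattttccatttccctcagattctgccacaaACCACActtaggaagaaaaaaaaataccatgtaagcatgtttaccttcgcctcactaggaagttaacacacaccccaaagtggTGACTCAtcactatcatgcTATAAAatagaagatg
Col10a1: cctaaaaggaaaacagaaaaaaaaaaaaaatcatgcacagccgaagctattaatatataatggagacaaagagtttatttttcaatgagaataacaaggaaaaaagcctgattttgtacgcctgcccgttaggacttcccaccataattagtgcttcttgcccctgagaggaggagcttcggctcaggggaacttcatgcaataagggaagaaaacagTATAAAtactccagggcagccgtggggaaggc

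The Mmp13 window held a RUNX match on the other strand 118 bases before the start, an AP-1 match 35 bases before it and a TATAAA 16 bases before it. The Col10a1 window held TATAAA 32 bases before the start. None of the 5 motifs was in the Pth1r window, nor in the same window of a second Pth1r start at chr9:110743687-110743936. The window of the remaining Pth1r start, at chr9:110742611-110742860, held a MEF2 match 200 bases before it; its letters are not shown because 109 of its bases are annotated exon. A window without a match says only that these letters are absent there. Among 32851 windows of the same length, 14.0% held the RUNX motif, 6.75% the AP-1 motif, 7.59% TATAAA, 1.55% the cyclic AMP response element and 1.69% the MEF2 motif. GC content was 40.4% for Mmp13, 41.6% for Col10a1 and 56.0%, 65.6% and 70.4% for the 3 Pth1r starts, against a median of 52.4% over all windows. The matches describe the sequences and were not tested as binding sites.

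Total counts were 15113675 to 19606082 per library. Of 13 listed chondrocyte markers, 12 were found in the table and detected in all 6 libraries. Among them Col2a1, the main collagen of cartilage, ranged from 4910 to 14100 CPM (read counts relative to the TMM-scaled library size). H3WT replicate 2 and H3K9M replicate 3 stood apart in the summed level of fibroblast markers. It was 9935 and 12140 CPM there, against 23530 to 34700 CPM in the other 4 libraries. Most of the sum was Col1a1, Col1a2 and Col3a1, which were lowest in these libraries, as was Thy1. Pdgfra was highest there, at 243 and 236 CPM against 89.6 to 182 CPM, and S100a4 and Dpt were neither lowest nor highest. Each tested member is therefore also given without either of these libraries. The H3.3 genes H3f3a and H3f3b had log2 fold changes of H3K9M over H3WT of -0.07 (adjusted p 0.886) and 0.06 (adjusted p 0.878, edgeR); that of H3f3a turned to 0.03 without H3WT replicate 2. Gene counts cannot distinguish the mutated codon, so these levels do not check the labels.

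By edgeR's quasi-likelihood test, 0 of the 13761 genes (0%) had an adjusted p under 0.05, so none of the 7 tested members passed either. With no adjustment, 1677 genes (12.2%) had a p under 0.05, of which 794 (5.77% of those tested) were lower in H3K9M. One member, Pth1r, was among them (1 of 7), lower in H3K9M. The DESeq2 Wald test called 390 of 13752 genes (2.84%) and limma-voom called 0. Of the 7 members, 6 had a negative log2 fold change of H3K9M over H3WT and 1 a positive one, with a median of -0.496 against -0.003 over all tested genes, of which 6934 were negative and 6827 positive. Because the members were chosen with earlier results of these data known, their sign count and median carry no test. Groups did not overlap for 2 members, Pth1r and Mef2c, both lower in H3K9M, where 2671 tested genes (19.4%) did not overlap in either direction and 1194 (8.68%) were lower.

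**Figure D1:**
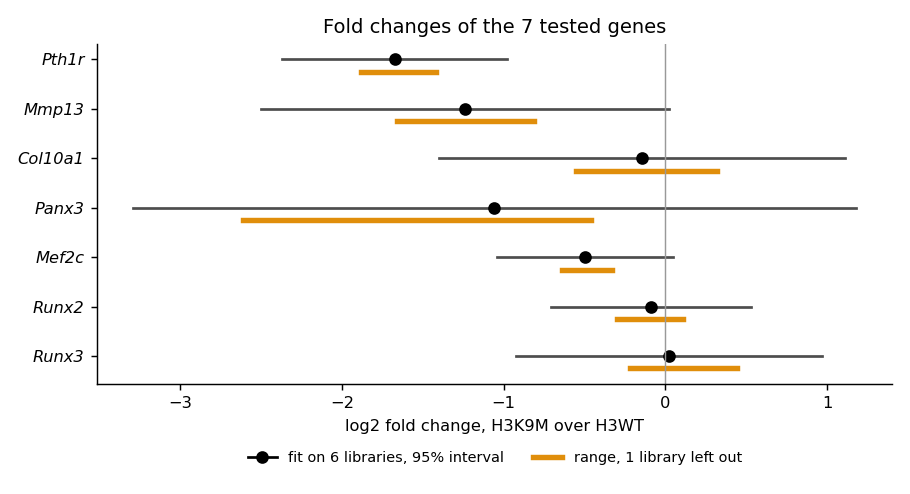
Log2 fold change of H3K9M over H3WT for the 7 tested genes (points) with the 95% interval (dark lines) and the range with 1 library left out (orange lines), on a log2 axis. The interval of Pth1r, -2.37 to -0.979, is the one that lies wholly below 0, and that of Panx3 is the widest.

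Pth1r, the receptor, was the member that differed most clearly between the groups. Its counts were 136, 124 and 136 in H3K9M (replicates 1, 3 and 5, the order used throughout) against 551, 304 and 399 in H3WT (replicates 1, 2 and 4), or 9.11, 5.99 and 6.94 CPM against 30.9, 15.8 and 23.5 CPM. Every H3WT library lay above every H3K9M library, and the lowest H3WT value was 1.73 times the highest H3K9M value. The H3WT mean of 23.4 ± 7.58 CPM was 3.19 times the H3K9M mean of 7.35 ± 1.6 CPM (SD over 3 libraries, as for all means here). On the log2 scale the difference was -1.67 (SE 0.302, 95% interval -2.37 to -0.979, unadjusted p 0.000515, edgeR quasi-likelihood test). Its adjusted p of 0.17 missed the threshold, and the gene ranked 37 of 13761 by p. Because these are bulk samples, fewer cells of a type and less RNA per cell cannot be told apart.

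The Pth1r difference kept its sign under all 12 alternatives, from -1.88 to -1.42, with an unadjusted p of at most 0.00287. Its adjusted p passed the threshold under 3 of them. These were DESeq2 (0.000239), edgeR on every gene with at least 1 count (0.0219; 36 of 19994 genes called, 0.18%) and edgeR without H3WT replicate 2 (0.032; 91 of 14246 genes called, 0.639%). H3WT replicate 2 held the lowest H3WT level of Pth1r. Without H3K9M replicate 3, the lowest of all, the log2 fold change was -1.53 (adjusted p 0.27).

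**Figure D2:**
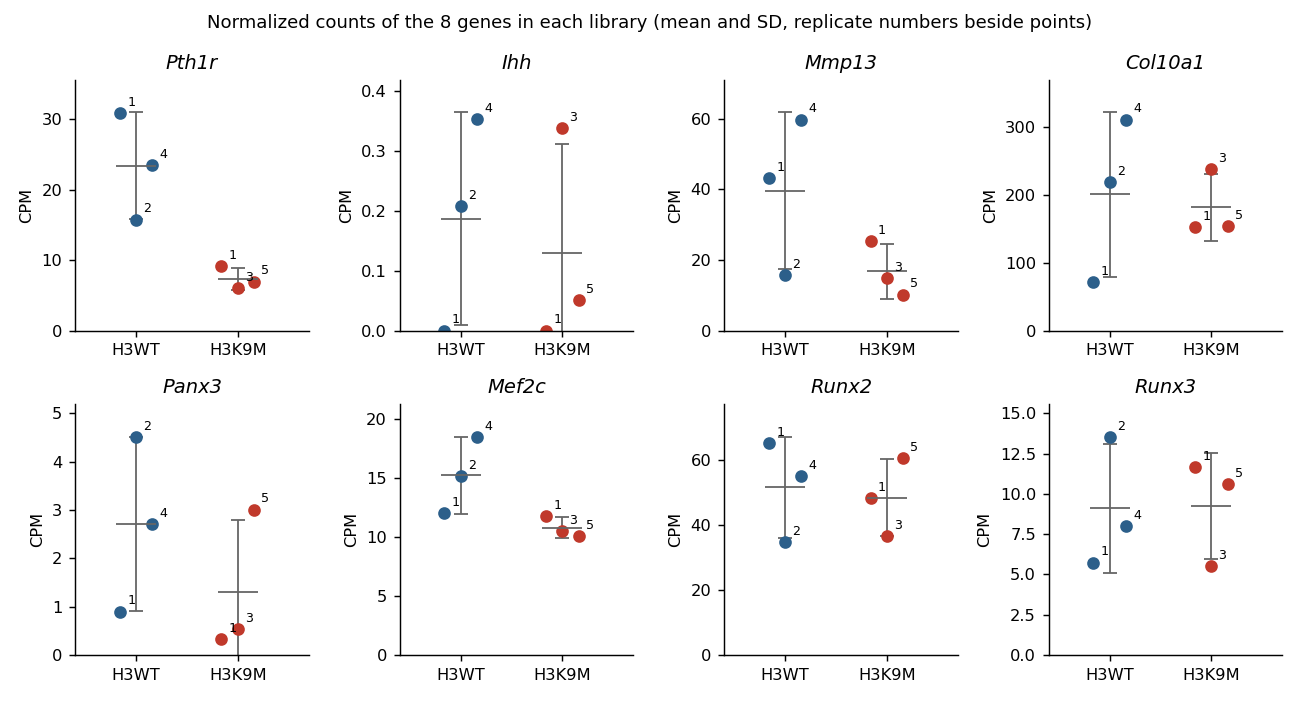
CPM of each of the 8 genes in the 6 libraries (points, numbered by replicate), with the group mean and SD (bars, which the axis ends at 0); each panel has its own axis from 0. Pth1r separates the groups, from 5.99 to 9.11 CPM in H3K9M and from 15.8 to 30.9 CPM in H3WT, while Col10a1, Mmp13, Runx2, Runx3, Panx3 and Ihh overlap.

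Ihh, the ligand at the other end of the loop, was near the limit of detection. It had 0, 7 and 1 counts in the H3K9M libraries and 0, 4 and 6 in the H3WT libraries, 8 against 10 in sum. In the libraries with 0 counts, H3K9M replicate 1 and H3WT replicate 1, a count of 0 allows up to 0.201 and 0.168 CPM (3 counts, counting error only). A difference was not detectable at this depth. Pthlh, which encodes PTHrP, had 9 counts in sum in H3K9M and 5 in H3WT, so neither ligand of the loop can be compared.

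Mmp13, the collagenase that degrades hypertrophic cartilage matrix, had 25.4, 14.9 and 10.2 CPM in H3K9M and 43.2, 15.8 and 59.7 CPM in H3WT. The groups overlapped through H3WT replicate 2, which lay between H3K9M replicates 1 and 3, while the other 2 H3WT libraries were above all H3K9M libraries. Means were 16.8 ± 7.8 and 39.6 ± 22.2 CPM, with a log2 fold change of -1.24 (SE 0.531, 95% interval -2.5 to 0.0233, p 0.0533, adjusted p 0.414, edgeR). The difference ranged from -1.66 without H3K9M replicate 1 to -0.81 without H3WT replicate 4. It was -1.61 without H3WT replicate 2, with an unadjusted p of 0.00412 and an adjusted p of 0.121, and -1.15 without H3K9M replicate 3.

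Col10a1, the collagen X chain and marker of the hypertrophic cell, had 152.2, 238.5 and 154.3 CPM in H3K9M and 71.5, 219.6 and 311.5 CPM in H3WT. The H3WT libraries held both the lowest and the highest value of all 6, and spanned 4.36-fold against 1.57-fold in H3K9M. Means were 182 ± 49.2 and 201 ± 121 CPM, and the log2 fold change of -0.145 (SE 0.514, 95% interval -1.4 to 1.11, adjusted p 0.942, edgeR) was smaller than the spread between replicates. In fold terms the interval runs from 0.38 to 2.15. The sign turned without H3WT replicate 4 (0.32) and with limma-voom (0.07). It was -0.06 without H3WT replicate 2 and -0.38 without H3K9M replicate 3.

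Panx3, a pannexin channel of hypertrophic chondrocytes and osteoblasts, was low and variable. It had 5, 11 and 59 counts in H3K9M and 16, 87 and 46 in H3WT, or 0.335, 0.532 and 3.01 CPM against 0.898, 4.51 and 2.71 CPM. The groups overlapped, with H3K9M replicate 5 above 2 of the 3 H3WT libraries, and the highest value was 8.99 times the lowest within H3K9M and 5.03 times within H3WT. The log2 fold change of -1.06 (SE 0.973, 95% interval -3.29 to 1.18, adjusted p 0.707, edgeR) became -2.61 without H3K9M replicate 5 (unadjusted p 0.0383, adjusted p 0.449) and -0.46 without H3WT replicate 2. Without H3K9M replicate 3 it was -0.67.

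Mef2c, a transcription factor of the hypertrophic programme, had 11.8, 10.5 and 10.1 CPM in H3K9M and 12.01, 15.2 and 18.5 CPM in H3WT. The groups did not overlap, but the lowest H3WT value was only 1.02 times the highest H3K9M value, and they overlapped when counts were scaled by library size alone. Means were 10.8 ± 0.885 and 15.2 ± 3.24 CPM, with a log2 fold change of -0.496 (SE 0.236, 95% interval -1.04 to 0.046, p 0.0679, adjusted p 0.444, edgeR). Leaving out H3WT replicate 1 gave -0.64 (unadjusted p 0.0358) and leaving out H3WT replicate 4 gave -0.33. It was -0.49 without H3WT replicate 2 and -0.47 without H3K9M replicate 3.

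Runx2 and Runx3 showed no difference beyond the spread between libraries. Runx2, a master regulator of both hypertrophy and bone formation, had 48.2, 36.7 and 60.6 CPM in H3K9M and 65.3, 34.7 and 55.0 CPM in H3WT, with a log2 fold change of -0.09 (SE 0.267, 95% interval -0.709 to 0.528, adjusted p 0.93, edgeR). Its sign turned without H3WT replicate 1 (0.11) and without H3K9M replicate 3 (0.09), and it was -0.30 without H3WT replicate 2. Runx3, which acts alongside it in chondrocytes, had 11.7, 5.51 and 10.6 CPM in H3K9M and 5.73, 13.5 and 8.01 CPM in H3WT, with a log2 fold change of 0.02 (SE 0.41, 95% interval -0.921 to 0.967, adjusted p 0.989, edgeR). It turned to -0.22 without H3WT replicate 1 and was 0.44 without H3WT replicate 2 and 0.30 without H3K9M replicate 3. The intervals of both genes include changes that these libraries could not resolve.

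**Figure D3:**
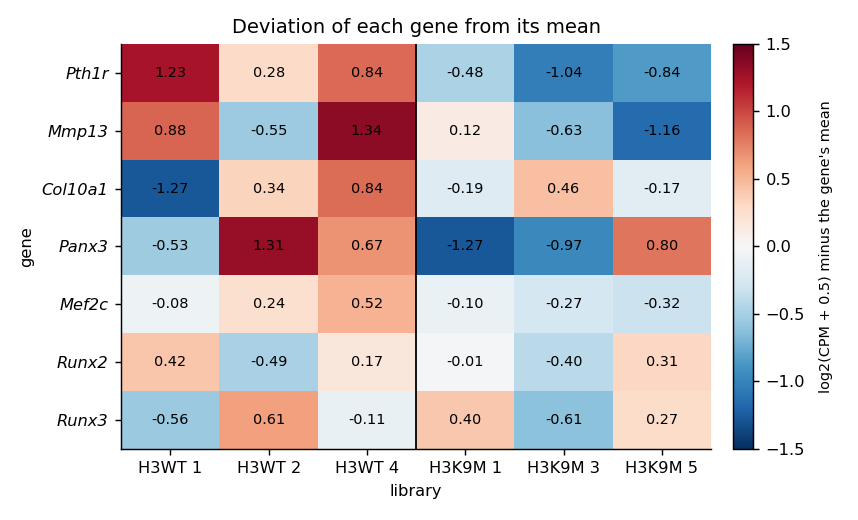
Deviation of each of the 7 tested genes from its own mean in each library, on the log2(CPM + 0.5) scale (red above the mean, blue below; Ihh left out). Pth1r is above its mean in all 3 H3WT libraries and below it in all 3 H3K9M libraries, and none of the other 6 genes shows that split.

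Per kilobase of annotated exon, the order of levels over the 6 libraries, by median, was Col10a1 (59.7 CPM per kb, range 22.8 to 99.7), Mmp13 (7.71, 3.82 to 22.3), Runx2 (5.84, 3.93 to 7.39), Pth1r (4.26, 2.05 to 10.6), Runx3 (1.86, 1.1 to 2.7), Mef2c (0.757, 0.643 to 1.18), Panx3 (0.525, 0.0976 to 1.31) and Ihh (0.0425, 0 to 0.116). Only the first pair of neighbours, Col10a1 and Mmp13, did not overlap in range over all 6 libraries. Compared library by library, Pth1r was above Runx3, Runx3 above Mef2c and Panx3 above Ihh in 6 of 6. Mmp13 was above Runx2 in 5 of 6 and Mef2c above Panx3 in 4 of 6, so those neighbours are not resolved. Pth1r and Runx2 changed places with the group: Runx2 was above Pth1r in 3 of 3 H3K9M libraries and in 0 of 3 H3WT libraries. For scale, Col2a1 had a median of 754 CPM per kb.

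Pth1r varied across the libraries with Mmp13 (Pearson r of log2 CPM 0.811) and Mef2c (0.674), less with Runx2 (0.392) and Panx3 (0.273), and in the opposite sense to Runx3 (-0.16) and Col10a1 (-0.292). These values describe 6 libraries that share the 2 groups, so they carry no test. Among the other 13760 tested genes, 276 had a coefficient above 0.9. The 5 highest were Sec24b (0.995), Arap1 (0.992), D17Wsu92e (0.992), Adcy1 (0.991) and Tmem254b (0.99).

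Adcy1, an adenylyl cyclase, the class of enzyme that makes cyclic AMP, had 1.14, 0.532 and 0.714 CPM in H3K9M and 17.35, 4.72 and 16.3 CPM in H3WT (log2 fold change -4.02). It was picked for its likeness to Pth1r over these same libraries, so its separation of the groups follows from the choice and no test is given.

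The rest of the PTHrP and hedgehog loop was read from a list of 16 genes, of which 13 were tested: 10 had negative and 3 positive log2 fold changes, with a median of -0.115. None passed the adjusted threshold, and 3 had an unadjusted p under 0.05, all lower in H3K9M, where 5.77% of all tested genes were lower at that p. These were Smo, the hedgehog signal transducer, Gnaq, a G protein alpha subunit that Pth1r can engage, and Sufu, a hedgehog inhibitor. Smo had 174, 137 and 180 CPM in H3K9M and 223, 233 and 244 CPM in H3WT (log2 fold change -0.51, adjusted p 0.239, edgeR; 0.0452 with DESeq2). Gnaq had 69.4, 62.3 and 70.6 CPM against 90.4, 83.2 and 99.9 CPM, and Sufu 30.8, 36.7 and 32.1 CPM against 40.7, 42.9 and 41 CPM. With DESeq2 neither passed, at an adjusted p of 0.111 for Gnaq and 0.395 for Sufu. All 3 genes separated the groups, and each difference was smaller than that of Pth1r. Groups did not overlap for 6 of the 13, all lower in H3K9M; 8.68% of all tested genes were lower without overlap. Ptch1, the hedgehog receptor, was among these with 23.8, 13.9 and 25.3 CPM against 26.8, 25.9 and 34.3 CPM. Gnas, the stimulatory G protein of Pth1r, had a log2 fold change of -0.05. Gli1, a hedgehog target, had 46 counts in sum in H3K9M and 51 in H3WT, of which H3WT replicate 2 held 49.

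Among 20 other regulators of hypertrophy, 18 were tested, with 13 negative and 5 positive values and a median of -0.231. None passed the adjusted threshold, and 3 had an unadjusted p under 0.05, all lower (5.77% of all tested genes were lower at that p): Nkx3-2, a repressor of hypertrophy, Hdac5, a deacetylase that binds MEF2 factors, and Shox2, a limb patterning factor. Nkx3-2 had 0.804, 1.4 and 0.816 CPM in H3K9M and 5.16, 6.8 and 3.95 CPM in H3WT (log2 fold change -2.38, adjusted p 0.194, edgeR; 0.00156 with DESeq2). Hdac5 had 77.4, 76 and 76.5 CPM against 130, 86.4 and 154 CPM, without overlap (log2 fold change -0.69, adjusted p 0.257 with edgeR and 0.07 with DESeq2). Shox2 had 62.4, 48.8 and 51.4 CPM against 77.4, 80.9 and 59.5 CPM, with the groups overlapping (adjusted p 0.367 with edgeR and 0.308 with DESeq2).

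Of 20 other hypertrophy and mineralization genes, 17 were tested, 10 negative and 7 positive, with a median of -0.34. At an unadjusted p under 0.05, 4 were lower and 1 was higher, 5.77% of all tested genes being lower and 12.2% passing in either direction. Ibsp, bone sialoprotein, had 1.88, 3.04 and 0.867 CPM in H3K9M and 8.08, 5.45 and 12 CPM in H3WT (log2 fold change -2.13, adjusted p 0.227, edgeR; 0.0116 with DESeq2). Enpp1, which makes the mineralization inhibitor pyrophosphate, went the other way, with 114, 203 and 119 CPM against 62.6, 74.4 and 35.5 CPM (log2 fold change 1.34, adjusted p 0.231, edgeR; 0.00363 with DESeq2). Fgfr3, a receptor that limits chondrocyte proliferation, had 10.4, 20.3 and 32.6 CPM against 32.3, 83.5 and 89.4 CPM, with H3K9M replicate 5 at the level of the lowest H3WT library. Its adjusted p was 0.297 with edgeR and 0.0108 with DESeq2. The other lower genes at that p were Sp7 (log2 fold change -1.28) and Bmp6 (-1.77).

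**Figure D4:**
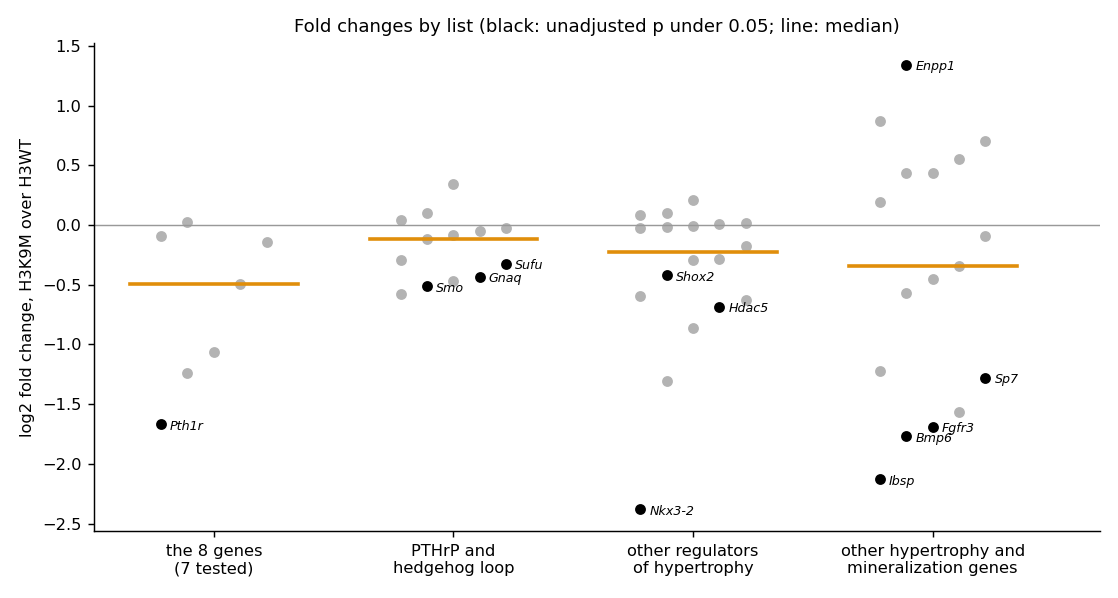
Log2 fold change of H3K9M over H3WT of every tested gene in the 3 pathway lists and the 7 tested members (points, black and named where the unadjusted p was under 0.05), with the median (line). All medians are below 0, at -0.496 for the members, -0.115, -0.231 and -0.34 for the lists. Members and lists were chosen with earlier results of these data known, so the medians carry no test.

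Relatives of the members were compared next. Of 14 listed relatives, 7 were tested, with 5 negative and 2 positive values and a median of -0.008. Mmp3, another metalloproteinase, had 0.804, 0.773 and 1.89 CPM in H3K9M and 5.45, 7.63 and 3 CPM in H3WT, without overlap (log2 fold change -2.20, SE 0.592, adjusted p 0.239, edgeR). Panx1, the broadly expressed pannexin, had 17.2, 13.6 and 13 CPM against 10.6, 9.75 and 10.4 CPM, without overlap (log2 fold change 0.51, adjusted p 0.406). Runx1, Mef2a, Mef2d and Col8a1 had log2 fold changes of 0.10, -0.008, -0.02 and -0.006, and Col8a2 -1.26 with overlapping groups. By median level per kb, Mef2d (21.6), Mef2a (6.04) and Runx1 (8.42) were above Mef2c and Runx3, and Panx1 (1.96) was above Panx3. Pth2r, the receptor related to Pth1r, had 5 counts in sum in H3K9M and 12 in H3WT.

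The same libraries differed in markers of other cell types, and the part of these in the results above was not tested. Summed chondrocyte markers were 7338, 7829 and 11540 CPM in H3K9M and 7255, 19390 and 13650 CPM in H3WT, and all 12 had negative fold changes with a median of -0.959, 2 of them at an unadjusted p under 0.05. Of all tested genes, 12.2% passed that p in either direction and 5.77% were lower at it, and 19.4% did not overlap in either direction. These shares stand beside every marker count in this paragraph, and the short lists are not read against them. Col2a1 made up most of the sum in every library, with 4910 of 7255 CPM in H3WT replicate 1. That library had the lowest marker sum of all 6 and the highest Pth1r level. How Pth1r relates to these markers was not tested. Summed muscle markers were 176.9, 254 and 29.3 CPM in H3K9M against 34.3, 13.2 and 28.9 CPM in H3WT, and all 6 tested were positive, 4 at an unadjusted p under 0.05. Myod1 (0, 1.04 and 0 CPM in H3WT) and Myh3 (0.674, 0 and 0 CPM) are among these 4. They passed the low-count filter only through the H3K9M libraries, so their positive sign follows largely from the filter and is not read as a result. H3K9M replicate 5 had a muscle sum within the H3WT range, where Acta1 made up most of the sum in H3WT replicates 1 and 4 (26.2 and 24 CPM). Myod1, Des, Myh3 and Tnnt3 were the 4 tested markers whose groups did not overlap. By that choice H3K9M replicate 5 was above every H3WT library for each of them, so its position there is no separate result. H3K9M replicate 5 had 4.29, 8.78, 1.73 and 5.97 CPM, against at most 1.04, 6.8, 0.674 and 2.08 CPM. Its Mylpf level of 2.14 CPM was under the 2.3 CPM of H3WT replicate 1, and its Acta1 level of 5.97 CPM lay within the H3WT range. Osteoblast markers summed to 4972 to 15560 CPM and 3699 to 18950 CPM, nearly all Col1a1. Of 5 tested, 2 were lower at an unadjusted p under 0.05, Sp7 and Ibsp. Both had counts in all 6 libraries (47 to 291 and 17 to 203). Mepe was at 0 in all libraries, Bglap had 1 count in sum in H3WT, and Bglap2 had 3. Of 7 fibroblast markers, 1 was higher at an unadjusted p under 0.05 and none lower (sums 12140 to 30250 and 9935 to 34700 CPM). Endothelial markers summed to at most 1.30 CPM in any library, with 5 to 7 of 8 at 0. Blood markers summed to 11.5 to 22.95 CPM in H3K9M and 5.83 to 13.75 CPM in H3WT, with Ptprc at 0, all 4 tested positive and none at an unadjusted p under 0.05.

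**Figure D5:**
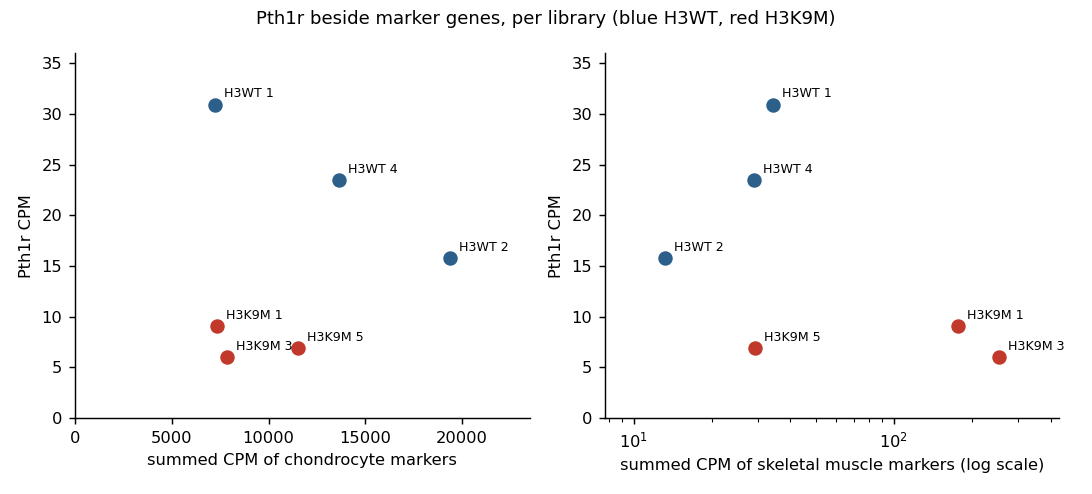
Pth1r level (CPM, vertical) against the summed CPM of chondrocyte markers and of skeletal muscle markers (horizontal) for the 6 libraries (blue H3WT, red H3K9M; the muscle axis is a log scale). H3WT replicate 1 has 30.9 CPM of Pth1r at a chondrocyte sum of 7255 CPM, and H3K9M replicate 1 has 9.11 CPM at 7338 CPM. Most of each chondrocyte sum is Col2a1, and the relation was not tested.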

How the data were processed

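Raw read counts per gene were deposited by the authors in 1 table with 1 column per library, with no normalization; per the submitters' processing notes, HISAT2, featureCounts and DESeq2 were used with mm10. Strand setting, annotation and versions are not given in the sources used here. Every column name matched 1 sample title, and 0 columns belonged to other series. Totals of 15113675 to 19606082 counts set the precision of low genes.

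Genes were kept by filterByExpr, scaled by TMM and fitted with edgeR 4.0.16 (glmQLFit, robust; R 4.3.3) with 1 term, genotype, for all 6 libraries. Adjustment was by Benjamini-Hochberg over all 13761 tested genes (threshold 0.05). The SE is the log2 fold change divided by the square root of the F statistic. With 3 libraries against 3, an exact two-sided permutation test gives at least 0.1 and was not used. Computations were tested on simulated data.

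The members and lists were chosen with earlier results of these data known. The lists were the PTHrP and hedgehog loop, other regulators, other hypertrophy and mineralization genes, family relatives and markers of 6 cell types. Named from the first 3 are the 3 genes of smallest p each (further genes were named after their values were seen), from the relatives those tested, and the 5 genes most like Pth1r by Pearson's r of log2 CPM with a prior count of 2. Alternatives were DESeq2 1.42.0, limma-voom (limma 3.58.1), DESeq2 size factors, library size alone, every gene with at least 1 count, at least 10 counts in every library, and each library left out. Levels per kb use GENCODE M21 exon lengths.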

Additional observations from a re-analysis of the deposited data

How the results depend on the processing

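Over 12 alternatives and 26 named genes, 285 fold changes stayed on their side of the threshold with their sign, 13 newly passed it and 12 changed sign. None could cease to pass, because 0 genes passed in the edgeR fit on all 6 libraries. Some of the named genes were picked for a small p or for likeness to Pth1r in these libraries, so the tally does not measure stability. Genes past the adjusted threshold numbered 0, against 390 with DESeq2, 36 on every gene with at least 1 count and 0 to 91 with 1 library left out (2 without H3K9M replicate 3, 91 without H3WT replicate 2). Members with an unadjusted p under 0.05 numbered 1, against 2 with DESeq2 (Pth1r and Mmp13) and 1 to 2 with 1 library left out. The number was 2 without H3K9M replicate 1 or 5 or H3WT replicate 1 or 2. Over all genes, 1677 of 13761 (12.2%) were under that p with edgeR, and 1866 of 13752 with DESeq2. With 1 library left out, 1212 of 14288 (without H3K9M replicate 1) to 2434 of 14246 (without H3WT replicate 2) were. These counts are not read as a result about the 7 members. Members without overlap numbered 2, against 1 with library size alone and 2 to 3 with 1 library left out (3 without H3K9M replicate 1 or 5 or H3WT replicate 2). Over all tested genes, 2671 (19.4%) did not overlap with all 6 libraries used. This share is not given for the alternatives. Groups of fewer libraries also separate more easily, so these member counts are not read as a change. Signs turned for Col10a1 (0.07 with limma-voom, -0.55 to 0.32 with 1 library left out), Runx3 (-0.02 and -0.22 to 0.44), Runx2 (-0.30 to 0.11), Acan (-0.74 to 0.79) and H3f3a (-0.14 to 0.03). The cause was not tested. Panx3 was not tested with at least 10 counts in every library, and Ihh was too low at this depth to compare. No paired analysis was possible because the groups share only replicate number 1.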
